A study of Mus musculus with 6 samples.

Results

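Transcripts of 7 metabolic enzyme genes were followed in mouse liver after loss of LKB1, the kinase encoded by Stk11. The genes are the aspartate aminotransferases Got1 and Got2, the alanine aminotransferases Gpt and Gpt2, the alanine-glyoxylate aminotransferases Agxt and Agxt2, and the cytosolic malate dehydrogenase Mdh1. They were taken by symbol from a table of 55450 genes, and 7 of 7 passed the filter on low counts. The knockout (KO) group held 3 mice with LKB1 fl/fl alleles, whose loxP sites let the Cre recombinase remove part of the gene, and the control group held 3 wild type (WT) mice. Both groups received AAV8 Cre, an adeno-associated virus used to reach hepatocytes, at 6 weeks of age. Livers were taken 4 weeks later, when the mice were 10 weeks old, and the strain is given as C57BL/J. The promoter that drove Cre is not given in the sources used here. Poly(A) RNA of the left lobe was sequenced with 1 library per mouse, and the comparison asks how the metabolic transcripts of the KO liver differ from those of WT liver.

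Aminotransferases move an amino group from an amino acid to a keto acid with pyridoxal phosphate as cofactor. In the liver they link amino acid breakdown to gluconeogenesis and the urea cycle, because alanine becomes pyruvate, and aspartate and oxaloacetate are made from each other. Cytosolic Got1 and Mdh1 work with mitochondrial Got2 and Mdh2 and with 2 kinds of inner-membrane carrier in the malate-aspartate shuttle, which moves reducing equivalents between the cytosol and mitochondria. The Agxt enzyme turns glyoxylate into glycine and so limits the formation of oxalate.

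The libraries held 47659122 to 56147667 counts. Stk11 was at 22.2, 14.4 and 11.4 counts-per-million (CPM) in KO 1, 2 and 3 and between 64.2 and 69.7 CPM in WT, so every KO library lay below every WT library. Replicate 1 of each group had Xist counts (42472 in KO and 29243 in WT) and almost none (6 and 3) from 4 Y-linked genes (Uty, Kdm5d, Eif2s3y and Ddx3y), whereas the other 4 libraries had 6146 to 8199 counts of these genes and at most 16 of Xist. The labels do not describe this difference, and the 4 Y-linked libraries (2 against 2) and the Xist pair (1 against 1, no test) are therefore also given apart. Of 14539 genes tested with edgeR's quasi-likelihood test, 3.37% had an adjusted p-value under 0.05, the threshold for a call. The share called as higher in KO was 2.15% and the share called as lower was 1.22%.

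Each of the 7 genes had a higher mean in KO, and for each of them the lowest KO library lay above the highest WT library, a pattern found for 16.9% of all tested genes. In edgeR 3 of the 7, Got1, Agxt and Gpt2, rose past the threshold, by 9.12-fold, 4.88-fold and 3.28-fold. In DESeq2 5 of the 7 were called as higher, against 8.74% of all genes, and with the Xist or Y-linked state as a term in edgeR also 5, against 5.36%. At an unadjusted p under 0.05 there were 6, against 26.3% of all genes in either direction. Mdh1 and Gpt were 2.49-fold and 1.83-fold higher in mean without passing the adjusted threshold in edgeR, and Agxt2 and Got2 were 1.34-fold and 1.11-fold higher. No member fell. The median log2 fold change was 1.32 over the 7 genes and 0.01 over all tested genes. Summed over the 7 genes, the level was 4495, 6918 and 7652 CPM in KO 1, 2 and 3 and 2167, 2240 and 1993 CPM in WT 1, 2 and 3. The sum was 6355 ± 1652 CPM in KO and 2133 ± 127 CPM in WT (SD, n = 3 each). In whole tissue, a change in the number of cells of a type and a change in the RNA per cell cannot be told apart.

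**Figure D1:**
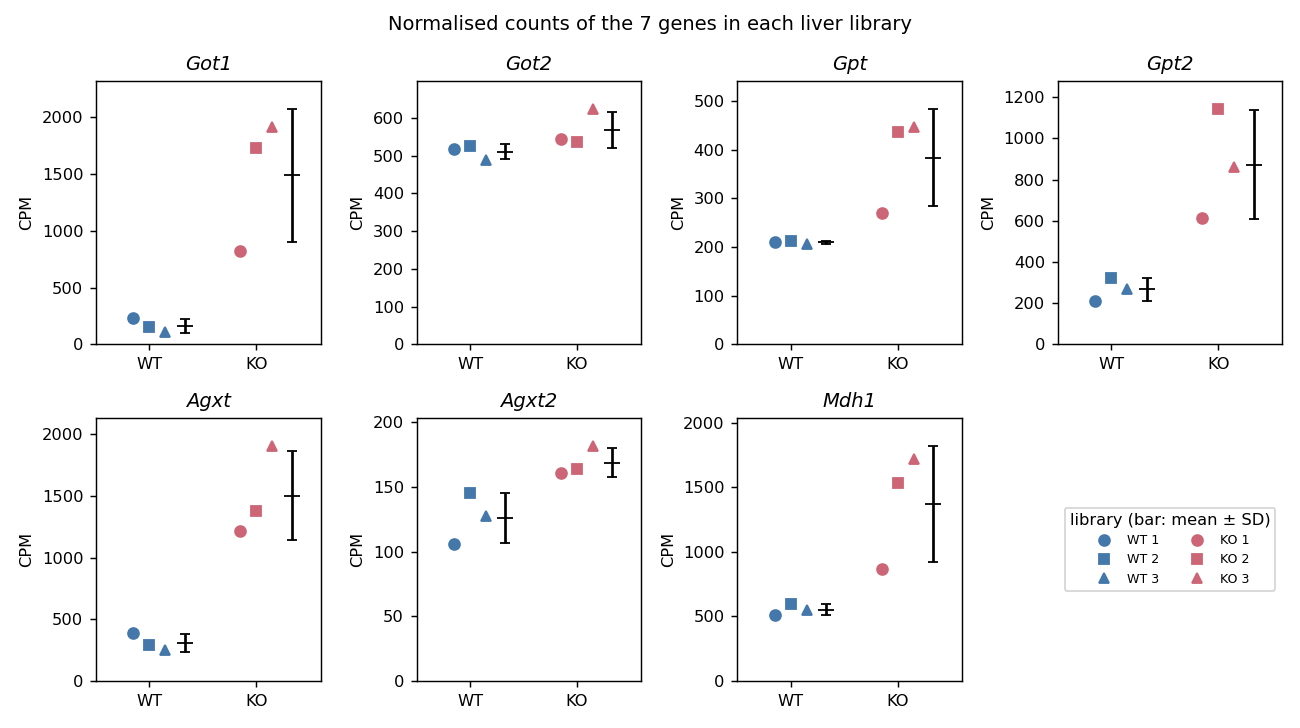
Normalised counts (CPM, linear axes from 0) of the 7 genes in each of the 3 WT and 3 KO libraries, with the mean and SD of each group as a black bar. The 3 KO points lie above the 3 WT points in every panel, with the widest gap for Agxt and narrow gaps for Got2 and Agxt2.

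Got1 (ENSMUSG00000025190.13, GRCm38 chromosome 19, 43499752 to 43524605, minus strand) encodes the cytosolic aspartate aminotransferase, whose activity in serum is a clinical sign of liver injury. It was at 823, 1727 and 1916 CPM in KO 1, 2 and 3 and at 228, 155 and 108 CPM in WT 1, 2 and 3. KO 1 was the lowest KO library and WT 1 the highest WT library, so the Xist replicates lay closest together. Means over 3 libraries were 1489 ± 584 and 163 ± 60.4 CPM (KO and WT, SD), and the log2 fold change of 3.19 ± 0.431 (SE) had an edgeR adjusted p of 0.0214. Among the 1384 tested genes with a mean of at least 100 CPM, Got1 had the 12th largest log2 fold change. The call was lost without KO 2, KO 3, WT 2 or WT 3, with adjusted p-values of 0.0619, 0.102, 0.142 and 0.113, while the log2 fold change stayed between 2.96 and 3.50 without any 1 library.

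Agxt (ENSMUSG00000026272.6, chromosome 1, 93135240 to 93145421, plus strand) was at 1219, 1380 and 1905 CPM in KO 1, 2 and 3 and at 386, 290 and 248 CPM in WT 1, 2 and 3. KO 1 was again the lowest KO library and WT 1 the highest WT library. Means over 3 libraries were 1501 ± 359 and 308 ± 70.6 CPM (KO and WT, SD). This is 2.29 ± 0.272 (SE) on the log2 scale, at an edgeR adjusted p of 0.0161. Without KO 3, WT 2 or WT 3 the adjusted p was 0.0613, 0.121 or 0.104.

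Gpt2 (ENSMUSG00000031700.11, chromosome 8, 85492576 to 85527560, plus strand) encodes the mitochondrial alanine aminotransferase. It was at 614, 1142 and 862 CPM in KO 1, 2 and 3 and at 212, 320 and 266 CPM in WT 1, 2 and 3. Replicate 1 was the lowest and replicate 2 the highest library within each group. Means over 3 libraries were 873 ± 264 and 266 ± 53.9 CPM (KO and WT, SD). The log2 fold change was 1.71 ± 0.285 (SE) at an edgeR adjusted p of 0.0331. This call held without KO 1 and was lost without any 1 of the other 5 libraries (KO 2, KO 3, WT 1, WT 2 or WT 3), with adjusted p-values from 0.0743 to 0.170.

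The sequences before the start sites of these 3 called genes are shown because the genes rose together. They are the 250 bases before the RefSeq start site of Got1 (chr19:43524606-43524855, minus strand), Agxt (chr1:93134990-93135239, plus strand) and Gpt2 (chr8:85492326-85492575, plus strand) in GRCm38.p6, written 5′ to 3′ along the gene. Capitals mark a match to any motif searched.
Got1: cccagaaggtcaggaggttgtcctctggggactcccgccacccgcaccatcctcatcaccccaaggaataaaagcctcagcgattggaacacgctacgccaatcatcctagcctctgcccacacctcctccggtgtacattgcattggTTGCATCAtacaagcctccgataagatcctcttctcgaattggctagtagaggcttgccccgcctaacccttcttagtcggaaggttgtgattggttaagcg
Agxt: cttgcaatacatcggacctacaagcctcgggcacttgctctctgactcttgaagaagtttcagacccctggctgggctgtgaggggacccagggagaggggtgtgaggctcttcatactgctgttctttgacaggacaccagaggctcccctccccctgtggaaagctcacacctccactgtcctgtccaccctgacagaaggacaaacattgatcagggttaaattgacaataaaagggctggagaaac
Gpt2: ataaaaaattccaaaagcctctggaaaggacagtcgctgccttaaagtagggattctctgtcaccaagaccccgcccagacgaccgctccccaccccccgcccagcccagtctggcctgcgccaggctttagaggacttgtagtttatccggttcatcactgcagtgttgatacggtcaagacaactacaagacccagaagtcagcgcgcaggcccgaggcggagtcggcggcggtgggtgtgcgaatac
Of the 7 genes, 6 matched an entry of the RefSeq promoter table. The motifs searched were the cAMP response element TGACGTCA and its core TGACG, which lies within it, the FoxO site TGTTTAC and the C/EBP-ATF composite site TGATGCAA, all on both strands, and the TATA box TATAAA on the gene's strand. Got1 held the composite site on the opposite strand (TTGCATCA as printed), from 102 to 95 bases before the start site. This motif was in 0.791% of 32851 windows of the same length. None of these motifs was found in the windows of Got2, Gpt2, Agxt, Agxt2 and Mdh1, and the core TGACG, found in 17.8% of all windows, was not in the window of Got1 either. The whole response element was in 1.55% of windows, the FoxO site in 3.17% and the TATA box in 7.59%. A match or its absence describes only the letters of these windows.

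Mdh1 (ENSMUSG00000020321.15, chromosome 11, 21556787 to 21572367, minus strand) encodes the cytosolic enzyme that interconverts malate and oxaloacetate. It was at 864, 1531 and 1718 CPM in KO 1, 2 and 3 and at 508, 593 and 548 CPM in WT 1, 2 and 3. The WT libraries were close to each other, with a coefficient of variation of 7.76%, and the KO libraries spread over 32.8%. The log2 fold change of 1.32 ± 0.285 (SE) missed the threshold, with an edgeR adjusted p of 0.0566. It passed with scaling by library size alone (0.0449), without the filter on low counts (0.0381), with the Xist or Y-linked state as a term (0.0325) and without KO 1 (0.0023). Exons of Mdh1 overlap those of Wdpcp on the opposite strand, but Wdpcp had only 78 to 149 counts per library against 25627 to 85062 counts of Mdh1.

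Gpt (ENSMUSG00000022546.5, chromosome 15, 76695716 to 76699686, plus strand) encodes the cytosolic alanine aminotransferase that is measured in serum as ALT. It was at 270, 437 and 446 CPM in KO 1, 2 and 3 and at 210, 212 and 207 CPM in WT 1, 2 and 3. Gpt had the smallest WT spread of the 7 genes, a coefficient of variation of 1.25%, and KO 1 stood between the WT libraries and the other KO libraries. The log2 fold change of 0.87 ± 0.223 (SE) had an edgeR adjusted p of 0.0755, and without KO 1 it was 1.07 with an adjusted p of 0.00281.

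Agxt2 and Got2 had the smallest differences of the 7 genes. Agxt2 (ENSMUSG00000089678.8, chromosome 15, 10358532 to 10410153, plus strand) encodes a mitochondrial enzyme that also acts on dimethylarginines and beta-aminoisobutyrate. It was at 161, 164 and 182 CPM in KO 1, 2 and 3 and at 106, 145 and 127 CPM in WT 1, 2 and 3, a log2 fold change of 0.42 ± 0.162 (SE, edgeR adjusted p = 0.161). Got2 (ENSMUSG00000031672.8, chromosome 8, 95864134 to 95888547, minus strand), the mitochondrial aspartate aminotransferase, was at 545, 537 and 623 CPM in KO 1, 2 and 3 and at 518, 526 and 489 CPM in WT 1, 2 and 3. The lowest KO and highest WT values of Got2 were thus almost equal. Its log2 fold change was 0.15 ± 0.158 (SE, edgeR adjusted p = 0.566). Reads of Got2 could be divided with the processed pseudogene Got2-ps1, which had 57.2 to 65.8 counts per library against at least 22884 for Got2.

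The 6 libraries hold both states, and 6 of the 7 genes had a larger log2 fold change in the Y-linked libraries than in the Xist pair. Got1 had log2 fold changes of 3.79 ± 0.263 (SE, edgeR adjusted p = 0.000858) in the former and 1.86 in the latter. For Agxt the values were 2.60 ± 0.244 (SE, adjusted p = 0.00186) and 1.66. Got1 and Agxt were thus higher in KO in both subsets. Gpt2 was nearly the same in both, at 1.77 ± 0.220 (SE, adjusted p = 0.00427) and 1.53. For Mdh1 the values were 1.50 and 0.77 and for Gpt 1.07 and 0.36, and both genes passed the threshold in the 4 libraries (adjusted p = 0.00441 and 0.00492). Agxt2 alone had the smaller value in the Y-linked libraries, 0.34 against 0.60, and Got2 was at 0.19 and 0.07. In those 4 libraries 5 of the 7 genes were called as higher, and 17.2% of all 14546 genes tested there were.

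The difference between these subsets was tested in edgeR as an interaction. The Xist arm holds 1 library per group, so the spread came from the 4 Y-linked libraries and was assumed to hold for the Xist pair. On simulated counts this test missed nearly all genes with the smaller known difference, so a lack of calls does not show equal effects. This test called 2.90% of all tested genes, and 0 of the 7 genes at an adjusted p under 0.05. At an unadjusted p under 0.05 there were 2, Got1 and Gpt, against 20.9% of all genes. The log2 difference was -1.94 ± 0.409 (SE) for Got1, with an adjusted p of 0.0799. This value depended on the choices, since it was 0.0353 with scaling by library size alone, 0.000664 without the filter, 2.58e-05 in DESeq2 and 0.449 without WT 3. Without KO 2 or without KO 3, which leaves the Y-linked arm 1 KO library, 4 of the 7 genes passed (Got1, Agxt, Gpt and Mdh1), as did 2964 and 4679 of all genes. Without WT 2 or WT 3 it was 0 of 7, and 88 and 67 of all genes. KO 1 was the lowest KO library for 6 of the 7 genes, Got2 being the other, and it was also the KO library with the highest Stk11 value. The part of residual Stk11, or of the state, in these values was not tested.

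**Figure D2:**
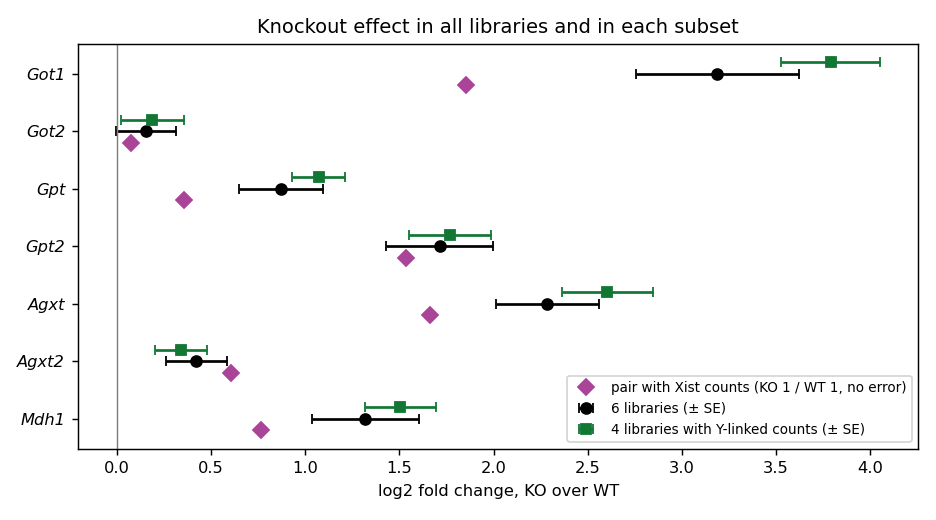
Log2 fold changes of KO over WT for the 7 genes in all 6 libraries (black circles) and the 4 Y-linked libraries (green squares), both with SE, and in the Xist pair (purple diamonds, no error). Every point lies to the right of 0, and Got1 shows the widest distance between the subsets, 3.79 against 1.86.

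The balance within 4 pairs of related enzymes was measured as the ratio of their CPM in each library. The ratio of cytosolic Got1 to mitochondrial Got2 was 1.51, 3.21 and 3.08 in KO 1, 2 and 3 and 0.44, 0.294 and 0.22 in WT 1, 2 and 3. All KO ratios lay above 1 and all WT ratios below it, and the log2 ratio differed by 3.01, or 8.07-fold. The ratio of cytosolic Gpt to mitochondrial Gpt2 was 0.439, 0.383 and 0.518 in KO and 0.992, 0.663 and 0.778 in WT, a log2 difference of -0.85. The KO ratios of this pair were all below the WT ratios.

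The ratio of Agxt to Agxt2 was 7.58, 8.42 and 10.5 in KO and 3.65, 2.00 and 1.95 in WT, a log2 difference of 1.85. The ratio of Mdh1 to mitochondrial Mdh2 was 3.33, 2.54 and 2.80 in KO and 3.35, 3.77 and 3.64 in WT, a log2 difference of -0.32. KO 1 and WT 1 were almost equal in this last ratio, and the other 4 libraries were at 2.54 and 2.80 in KO and 3.77 and 3.64 in WT. Each of the 4 ratios had no overlap between the groups and a two-sided exact permutation p of 0.1, the smallest that 3 against 3 samples allow, so none can pass 0.05, and the value adjusted over the 4 ratios was also 0.1.

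**Figure D3:**
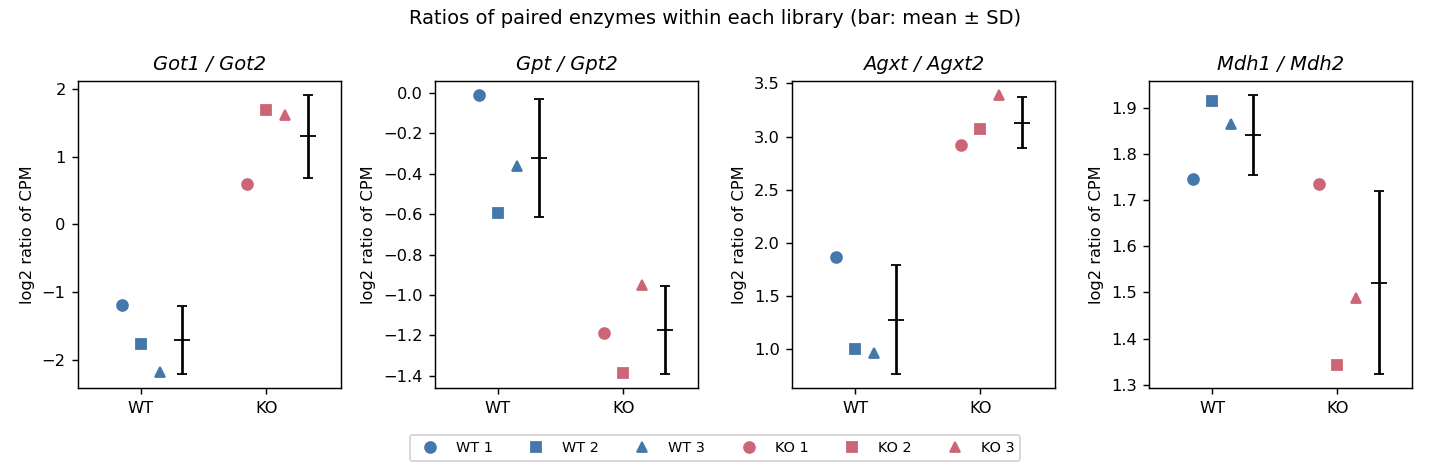
Log2 ratios of CPM of 4 enzyme pairs within each library, with the mean and SD of each group as a black bar; the vertical axes do not start at 0 and differ between panels. Got1 over Got2 and Agxt over Agxt2 were higher in the 3 KO libraries, and Gpt over Gpt2 and Mdh1 over Mdh2 were lower.

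Levels of different genes were compared as CPM per kb of the longest principal transcript in GENCODE M21. In WT the order from high to low was Mdh1 at 259 ± 20.1, Got2 at 202 ± 7.55, Agxt at 198 ± 45.4, Gpt at 117 ± 1.49, Got1 at 79.4 ± 29.3, Gpt2 at 73.1 ± 14.8 and Agxt2 at 69.0 ± 10.8 CPM per kb (SD, n = 3). Got2 and Agxt overlapped in range, as did Got1 and Gpt2, and Gpt2 and Agxt2. In KO the order was Agxt at 967 ± 231, Got1 at 723 ± 284, Mdh1 at 646 ± 212, Gpt2 at 240 ± 72.6, Got2 at 225 ± 18.8, Gpt at 215 ± 55.4 and Agxt2 at 92.5 ± 6.19 CPM per kb. Got1 thus stood below Got2 in WT and above it in KO. In the KO order each gene overlapped in range with the next, except Mdh1 with Gpt2 and Gpt with Agxt2. With merged exons as the length, neighbours with overlapping ranges changed places, Got2 with Agxt in WT and Got2 with Gpt in KO.

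**Figure D4:**
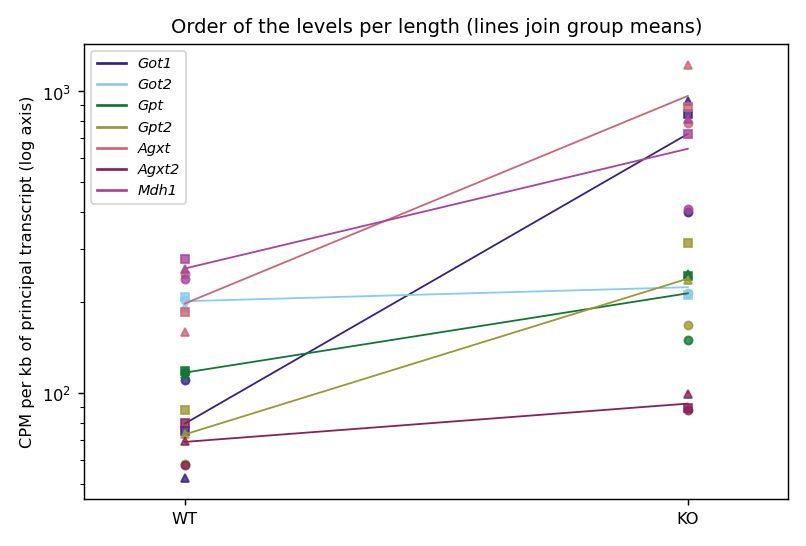
CPM per kb of principal transcript (log axis) for the 7 genes in the 3 WT and 3 KO libraries; circles, squares and triangles are replicates 1, 2 and 3, and lines join the group means. The line of Got1 climbs from 79.4 to 723 CPM per kb and crosses those of Mdh1, Got2 and Gpt, and the line of Got2 is nearly flat.

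The other parts of the malate-aspartate shuttle are Mdh2, the malate carrier Slc25a11 and the aspartate-glutamate carriers Slc25a12 and Slc25a13. Of these 4 genes 2 rose past the threshold and 0 fell in all 6 libraries, where 2.15% and 1.22% of all genes did. The median log2 fold change of the 4 genes was 0.94. Mdh2 had a log2 fold change of 1.68 ± 0.333 (SE) and Slc25a11 of 0.69 ± 0.136 (SE), both with an edgeR adjusted p of 0.0481. Both calls held without KO 1 and were lost without any 1 of the other libraries. They were also lost with the replicate number as a term in edgeR (adjusted p of 0.0872 for Mdh2 and 0.0949 for Slc25a11). The call of Slc25a11 was further lost without the filter (edgeR adjusted p = 0.0540) and with the scaling of DESeq2 in edgeR (0.0501). Slc25a12 was at 22.9, 43.0 and 42.9 CPM in KO 1, 2 and 3 and between 15.6 and 16.3 CPM in WT, without overlap, and its adjusted p was 0.0519. Slc25a13, the more abundant carrier in CPM, was at 228, 189 and 281 CPM in KO and 197, 256 and 222 CPM in WT, with overlapping groups (log2 fold change 0.05 ± 0.199, adjusted p = 0.896). Its sign was negative without KO 3 or WT 1 and in the Y-linked libraries.

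The glycerol phosphate shuttle is the other route for cytosolic reducing equivalents. Of its genes Gpd1 and Gpd2, 0 were called in edgeR over all libraries, 0 had an unadjusted p under 0.05, and DESeq2 called 0. Of all genes 3.37% were called in edgeR, 26.3% had an unadjusted p under 0.05, and DESeq2 called 2288 of 14539. In the Y-linked libraries Gpd1 and Gpd2 had log2 fold changes of -0.60 and 0.35, opposite in sign (edgeR unadjusted p of 0.023 and 0.0174). Neither gene passed the threshold there (edgeR adjusted p of 0.0629 and 0.0515). Gpd1, the cytosolic glycerol-3-phosphate dehydrogenase, was at 353 ± 58.0 CPM in KO and 463 ± 75.4 CPM in WT (SD, n = 3), and Gpd2, its mitochondrial partner, at 50.1 ± 3.47 and 44.4 ± 6.74 CPM. Both genes overlapped between the groups.

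A list of 12 other genes held aminotransferases and also Etnppl and Phykpl, which encode phospholyases. Of these 12 genes 10 were tested, with a median log2 fold change of 0.78. In edgeR 3 rose past the threshold and 0 fell, where 2.15% and 1.22% of all genes did. In the Y-linked libraries 6 were called as higher and 2 as lower, where 17.2% and 16.1% of all genes were. In DESeq2 it was 5 and 1, where 1270 and 1018 of all 14539 genes were. Without KO 1 it was also 5 and 1, where 2372 and 2101 of all 14833 genes were. The 3 were the ornithine aminotransferase Oat, the phosphoethanolamine phospholyase Etnppl and the tyrosine aminotransferase Tat. Oat and Etnppl had log2 fold changes of 2.99 ± 0.236 and 3.29 ± 0.484 (SE), close to that of Got1, and edgeR adjusted p-values of 0.0047 and 0.0261. The call of Oat was lost without WT 2 or WT 3, and that of Etnppl without KO 2, KO 3, WT 1, WT 2 or WT 3. Tat was at 3005, 3409 and 5971 CPM in KO 1, 2 and 3 and at 1058, 1165 and 1190 CPM in WT, or 1.86 ± 0.314 (SE) on the log2 scale at an edgeR adjusted p of 0.0344, and it passed without KO 1 but not without any 1 of the other libraries. The KO libraries of Tat all lay above the WT libraries. Kyat3, which acts on kynurenine, was at 270, 321 and 543 CPM in KO and 170 to 204 CPM in WT (adjusted p = 0.0816), and Kyat1, an enzyme of the same reaction, was at 59.7 to 76.7 CPM in KO and 91.0 to 132 CPM in WT (adjusted p = 0.0729). Neither overlapped between groups, and both passed in DESeq2, without KO 1 and in the Y-linked libraries (edgeR adjusted p of 0.0173 for Kyat3 and 0.0057 for Kyat1). Aadat, which acts on aminoadipate, was lower in the Y-linked libraries (-0.73, edgeR adjusted p = 0.0131). Abat, the 4-aminobutyrate aminotransferase, was at 634 ± 161 and 443 ± 53.2 CPM (adjusted p = 0.215), and Bcat2, a branched-chain aminotransferase, at 17.0 ± 0.230 and 13.8 ± 3.98 CPM (SD, n = 3, adjusted p = 0.374). Bcat2 passed in the Y-linked libraries alone (log2 fold change 0.58, edgeR adjusted p = 0.0132). The serine synthesis enzyme Psat1 was low, at 1.17, 4.48 and 2.08 CPM in KO and 0.684 to 1.10 CPM in WT, with an adjusted p of 0.120. Psat1 passed in DESeq2 (adjusted p = 0.0248), and in edgeR without KO 1 (0.0179) and in the Y-linked libraries (0.0296).

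Among 6 genes linked to the metabolism of glyoxylate, the substrate of Agxt, 4 were tested. Of these 4 genes 0 were called in edgeR, and 2 had an unadjusted p under 0.05 (26.3% of all genes did, in either direction). DESeq2 called 2, both lower in KO, and it called 1018 of all 14539 genes as lower. The median log2 fold change of the 4 genes was -0.58, opposite in sign to that of Agxt. Grhpr, which reduces glyoxylate to glycolate, was at 142, 80.2 and 91.4 CPM in KO 1, 2 and 3 and at 170, 219 and 207 CPM in WT, without overlap (log2 fold change -0.93 ± 0.244, adjusted p = 0.0784). Hao1, the peroxisomal glycolate oxidase, was at 171, 53.8 and 109 CPM in KO and at 159, 332 and 335 CPM in WT, so KO 1 lay above WT 1 (adjusted p = 0.141). In the 4 Y-linked libraries Grhpr and Hao1 had log2 fold changes of -1.32 and -2.04, past the threshold in edgeR (adjusted p of 0.00235 and 0.00975). Hoga1 and Prodh2, which act in hydroxyproline breakdown, had adjusted p-values of 0.803 and 0.782, and Prodh2 passed the threshold without KO 1 (-0.91, adjusted p = 0.0384).

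Enzymes and carriers linked to the metabolism of alanine, aspartate, glutamate and malate numbered 14. Of these 14 genes 3 rose past the threshold and 0 fell, where 2.15% and 1.22% of all genes did. The median log2 fold change of the 14 genes was 0.16. In the Y-linked libraries 6 were called as higher and 3 as lower, where 17.2% and 16.1% of all genes were. Without KO 1 it was 5 and 4, where 2372 and 2101 of all 14833 genes were. In DESeq2 it was 5 and 1, where 1270 and 1018 of all 14539 genes were. The 3 were the liver glutaminase Gls2, which makes glutamate, and the urea cycle genes Asl and Ass1, of which Ass1 uses aspartate. Their log2 fold changes were 2.12 ± 0.236, 2.64 ± 0.413 and 1.91 ± 0.313 (SE), with edgeR adjusted p-values of 0.0132, 0.0303 and 0.0325. Gls2 lost its call without WT 2 or WT 3, and Asl and Ass1 kept theirs without KO 1 alone among the 6 refits without 1 library. The aspartate-consuming asparagine synthetase Asns was at 14.0, 47.5 and 43.7 CPM in KO and at 0.651, 4.55 and 7.16 CPM in WT, without overlap. Its log2 fold change was 3.09 ± 0.835 (SE, edgeR adjusted p = 0.083), and 2.96 in the Y-linked libraries (edgeR adjusted p = 0.00107). Asns passed in 5 of 14 alternatives. Glutamate dehydrogenase Glud1 was at 1104 ± 170 CPM in KO and 1425 ± 203 CPM in WT (adjusted p = 0.318), and pyruvate carboxylase Pcx at 471 ± 28.0 and 453 ± 46.5 CPM (SD, n = 3, adjusted p = 0.855). The groups did not overlap for Glud1 and overlapped for Pcx. The malic enzyme gene Me1 was at 225 ± 57.5 and 281 ± 42.5 CPM (SD, n = 3, adjusted p = 0.399). The glutamine synthetase gene Glul was at 477, 30.3 and 76.6 CPM in KO 1, 2 and 3 and at 988 ± 88.7 CPM in WT (SD, n = 3), with KO 1 far above the other KO libraries. Its log2 fold change was -2.35 (edgeR adjusted p = 0.170), and without KO 1 it was -4.22 (0.0028), with -4.14 (0.00341) in the Y-linked libraries. The other genes called as lower in the Y-linked libraries were Me1 (-0.63) and the aspartate oxidase gene Ddo (-0.47). Over the 5 lists, 8 of 34 tested genes were called as higher and 0 as lower in all 6 libraries, where 2.15% and 1.22% of all genes were. In the Y-linked libraries 15 were called as higher and 7 as lower, where 17.2% and 16.1% of all genes were. Without KO 1 it was 13 and 8, where 2372 and 2101 of all 14833 genes tested were called as higher and lower. Without KO 2, KO 3 or WT 1 there were 2 higher calls, and without WT 2 or WT 3 there were 0, with no lower call in any of these.

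**Figure D5:**
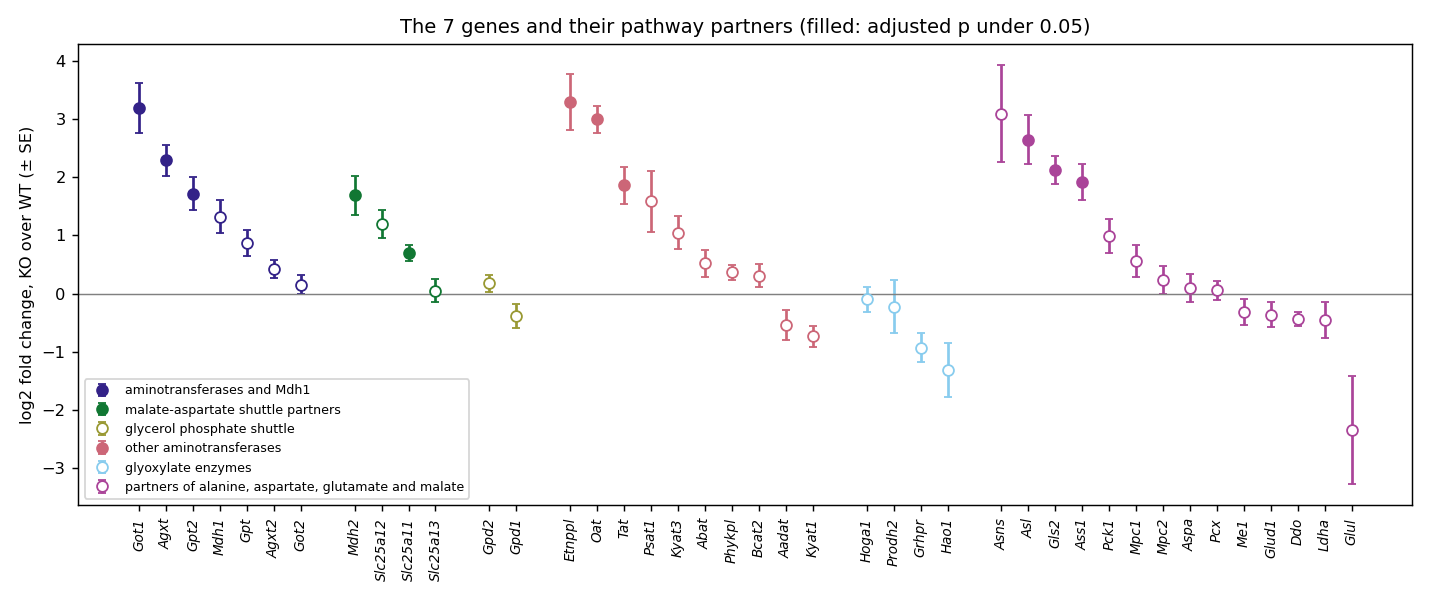
Log2 fold changes (± SE, edgeR, 6 libraries) of the 7 genes and of the tested genes in the 5 pathway lists; filled circles have an adjusted p under 0.05. All 11 filled circles lie above 0, and the circles of the 4 tested genes in the glyoxylate list lie below it.

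Genes with the most similar pattern were found by Pearson's correlation of log2 CPM over the 6 libraries among 11973 tested genes with a mean of at least 1 CPM. With 6 libraries in 2 groups such coefficients are high for any gene that differs between the groups, and they describe these libraries only. For Got1 the first 3 were Swi5, Prelid2 and Gm36172, with coefficients of 0.997, 0.996 and 0.995. For Agxt they were Lhpp (0.999), the gluconeogenic enzyme gene Fbp1 (0.998) and Dsn1 (0.998). The first 3 of Gpt were Mrpl13 (0.9995), Hint1 (0.9994) and Egln2 (0.9994), followed by the shuttle genes Mdh2 and Slc25a12 (both 0.9991). Mdh1 had Fam162a (0.9998), Ppia (0.9993) and Pmpcb (0.999) first. Sdhb and Cox4i1, genes of respiratory chain subunits, came after these (both 0.9987). Among the 7 genes themselves the highest coefficients were 0.993 for Mdh1 with Gpt and 0.989 for Got1 with Agxt, and the lowest was 0.669 for Got2 with Gpt2.

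The labelled tissue was checked against markers of hepatocytes and 7 other sets of markers. All 8 hepatocyte markers were detected in every library, with a sum from 29720 to 83730 CPM in KO and from 97470 to 140600 CPM in WT. Albumin, Alb, was at 50550, 10390 and 17530 CPM in KO and 57060 to 95630 CPM in WT. Of the list, 5 of the 8 markers lay lower in every KO library (15.5% of all genes did). The 2 markers Cps1 and Hnf4a lay higher in every KO library (16.9% of all genes did). In edgeR 0 of the 8 were called (4 at an unadjusted p under 0.05, 5 called in DESeq2). Alb was the largest part of the sum in every library. The sum was lower in KO, and the 7 genes were higher. Skeletal muscle, which also holds much Got1 and Mdh1, gave at most 0.0986 CPM summed over its 4 markers, with Ckm at 0 in 5 of 6 libraries. The 5 kidney tubule markers summed to at most 1.63 CPM, with Umod, Slc12a1 and Aqp2 at 0 in every library. Endothelial markers summed to 89.7 to 159 CPM in KO and 186 to 256 CPM in WT, with 6 of 8 lower in every KO library and 0 called in edgeR (7 at an unadjusted p under 0.05, 3 called in DESeq2). Macrophage markers summed to 78.6 to 178 and 118 to 158 CPM, stellate cell markers to 112 to 279 and 206 to 457 CPM, bile duct markers to 25.1 to 74.4 and 39.6 to 72.8 CPM, and lymphocyte and neutrophil markers to 1.23 to 2.47 and 2.06 to 2.92 CPM, in KO and WT respectively. In the Y-linked libraries, where 5 of the 7 genes were called as higher, 4 of 8 hepatocyte, 6 of 8 endothelial, 4 of 8 macrophage and 4 of 8 stellate cell markers were called as lower in edgeR, and 0, 0, 1 and 0 as higher. Of all genes tested in these libraries, 16.1% were called as lower and 17.2% as higher. The part of cell makeup in the values of the 7 genes was not tested.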

How the data were processed

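Expected counts (RSEM's estimates of reads per gene) of 55450 genes in 6 libraries came from the table that the authors deposited. The submitters' processing notes name bcl2fastq 2.17, cutadapt 1.18, STAR 2.7.0f, RSEM 1.3.1 and the build mm9. All 55450 gene IDs with their versions were found in GENCODE M21 (GRCm38), from which positions and lengths were taken. The use of strand is not given in the sources used here. Columns were matched to samples by description and groups by title, and 0 columns were left over.

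Expected counts were rounded, filtered with filterByExpr and scaled by TMM, and KO was compared with WT by edgeR 4.0.16 (quasi-likelihood, group as the only term, R 4.3.3). P-values were adjusted by Benjamini-Hochberg over all 14539 genes. The SE is the log2 fold change over the square root of F. CPM use TMM-scaled library sizes, and log2 CPM for correlations a prior count of 2. Alternatives were limma 3.58.1 (voom), DESeq2 1.42.0, other scalings, no filter, a replicate block, the state as a term, subsets and leaving out each library. The edgeR, DESeq2 and limma fits were tested on simulated counts with known changes, where DESeq2 called more of the changed genes than edgeR and also made more false calls. The interaction test in edgeR, tried likewise, missed nearly all genes with the smaller difference and many with the larger, and made some false calls. Per the labels the samples are separate mice.

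The 7 genes, the 5 pathway lists and the 8 marker lists were chosen with earlier results of these data known. Named are all 7 genes, any gene of the shuttle and glyoxylate lists, and of the other lists a fixed set plus up to 5 with the smallest adjusted p. Outside this rule, Aspa is named for its change of sign and Bcat1 for its low counts. A gene of 1 pathway list is not reported here and is not in that list's counts. One marker, Tf, was matched through its RefSeq symbol Trf. Totals of 47659122 to 56147667 counts put the floor of 3 counts at 0.0515 to 0.0641 CPM, far below the 7 genes.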

Additional observations from a re-analysis of the deposited data

How the results depend on the processing

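The direction of all 7 genes was the same in all 14 alternatives. Among all genes, 490 calls became 771 without the filter, 2288 in DESeq2, 1504 with the state as a term, 4847 in the Y-linked libraries, and 6 to 4473 when 1 library was left out. Scaling by library size alone moved the higher and lower calls from 313 and 177 to 380 and 131. Among the 7 genes, 3 calls became 5 in DESeq2, with the state as a term and in the Y-linked libraries, and 0 to 5 when 1 library was left out (0 without KO 3, WT 2 or WT 3, where 5 to 6 had an unadjusted p under 0.05). With the replicate number as a block edgeR called 105 genes and 0 of the 7 (5 at an unadjusted p under 0.05). Of the 34 tested genes in the pathway lists it called 3, all higher. Same-numbered libraries correlated in their deviations from the group means at 0.178, 0.0443 and 0.0679, KO 2 and KO 3 correlated best with another number, and the samples share only a number. The 4 ratios of enzyme pairs kept their direction in every alternative, the block included (3.01 for Got1 to Got2). The test of the difference between the subsets called 421 genes, 1607 without the filter, 968 in DESeq2 and 67 to 4679 without 1 of the Y-linked libraries, an alternative chosen after seeing the data. In the pathway lists the sign of the log2 fold change turned only for genes that were not called over all 6 libraries. Of these genes Prodh2 passed the threshold without KO 1. Slc25a13 was at -0.029 in the Y-linked libraries and from -0.11 to 0.18 without 1 library (negative without KO 3 and, at -0.041, WT 1). Aspa was at -0.12 in the Y-linked libraries and from -0.078 to 0.28 without 1 library (negative without KO 3 and WT 1). Without 1 library Hoga1 was at -0.23 to 0.10 and Prodh2 at -0.91 to 0.13 (both positive without KO 2), and Pcx at -0.0027 (without WT 3) to 0.14. The cause of these shifts was not tested. Each of the 7 genes had at least 5036 counts per library, and the part of depth in the calls was not tested.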

Other observations

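Hao2, a hydroxyacid oxidase of the glyoxylate list, did not pass the filter on low counts by group. It had 430 counts in KO 1 and 1421 counts in WT 1, the libraries with Xist counts, and 1 to 4 counts in each of the other 4 libraries. Its levels were 7.38 CPM in KO 1 and 28.0 CPM in WT 1, and at most 0.0771 CPM elsewhere.

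Got1l1, a relative of Got1 in sequence that is known from testis, had 12, 15 and 0 counts in KO 1, 2 and 3 and 1, 1 and 0 counts in WT 1, 2 and 3. Mdh1b, a relative of Mdh1, had 0 counts in every library, and Bcat1 and Dao of the lists were at most at 0.0343 CPM.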
